A study of Rattus norvegicus with 82 samples.

Results

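The genes described here encode the stretch-responsive ankyrin repeat, LIM and Xin actin-binding repeat proteins of the cardiomyocyte. They were taken by symbol from a list of 8 genes, and 7 of these were found among the 17337 genes of the table. They were Ankrd1 (NCBI Gene 27064), Ankrd2 (309374), Ankrd23 (316330), Csrp3 (117505), Fhl1 (25177), Fhl2 (63839) and Xirp2 (311098), and all 7 passed the filter on low counts that left 11954 genes for testing. Xirp1 was not analysed here. Cardiomyocytes were taken from both the right (RV) and the left (LV) ventricle of 41 male and female rats, F1 offspring of Wistar Kyoto mothers and Lewis fathers, and their RNA was sequenced after ribosomal RNA depletion in 82 libraries of 12 groups. The RV was loaded by a clip on the pulmonary artery (PAB) and the LV by a clip on the aorta (AOB), with sham-operated rats as controls, and hearts were taken at the compensated stage (H) or at the stage of failure (F). The early groups, by the labels 11 weeks old and 7 weeks after surgery, comprised Sham-H with 7 rats, PAB-H with 6 and AOB-H with 6. The late groups comprised Sham-F with 9 rats and AOB-F with 7, labelled as 31 weeks old and 26 weeks after surgery, and PAB-F with 6 rats, labelled as 28 weeks old and 22 weeks after surgery. By the labels PAB-F rats were thus younger than the Sham-F rats they were compared with. The published results also have Sham-F rats killed at a later age than that of failure in PAB. The published ages differ from the labels, and the methods name echocardiography of Sham-F rats at both late times after surgery. The size of the age difference between these groups is therefore uncertain. Cells came from collagenase-digested hearts and were enriched by centrifugation, and each library is 1 ventricle of 1 rat.

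Ankrd1, Ankrd2 and Ankrd23 encode the muscle ankyrin repeat proteins CARP, ARPP and DARP, which bind the elastic spring of titin in the I-band of the sarcomere and also enter the nucleus, and Ankrd1 is a classical transcript of the loaded ventricle. Csrp3 encodes muscle LIM protein, a Z-disc protein required for normal heart muscle structure. Fhl1 and Fhl2 encode FHL-type LIM domain proteins that bind titin at different places and are linked to hypertrophic signalling. Xirp2 encodes an actin-binding protein of the intercalated disc, where cardiomyocytes are joined end to end. These proteins connect the filaments that carry tension with signalling and transcription, and are therefore used to follow mechanical load.

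Promoter sequences of 6 of the 8 listed genes were present in the RefSeq table of the rat build GRCr8, and 5 of these 6 were measured. The 250 bases before the transcription start are printed for the 4 measured genes with a motif match, taking the first of 2 windows for Fhl1 and Fhl2, since these include the gene with the largest response to load, the gene that fell, and the gene that differed most between the ventricles. Both strands were searched for the MCAT letters GGAATG, the GATA letters AGATAA, and the CArG and MEF2 motifs, which are bound by transcription factors of heart muscle. Capitals mark the letters found, as they read on the printed strand.
Ankrd23 (chr9:46274511-46274760, minus strand): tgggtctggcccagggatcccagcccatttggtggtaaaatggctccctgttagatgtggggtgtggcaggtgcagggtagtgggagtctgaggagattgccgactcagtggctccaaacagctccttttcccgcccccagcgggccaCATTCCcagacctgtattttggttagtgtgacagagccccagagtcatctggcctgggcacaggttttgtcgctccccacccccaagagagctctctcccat
Fhl1 (chrX:139638246-139638495, plus strand): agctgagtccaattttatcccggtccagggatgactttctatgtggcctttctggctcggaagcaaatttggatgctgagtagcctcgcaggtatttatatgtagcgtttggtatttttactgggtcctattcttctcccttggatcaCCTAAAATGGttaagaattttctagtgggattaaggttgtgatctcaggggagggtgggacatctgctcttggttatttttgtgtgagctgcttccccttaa
Fhl2 (chr9:52954541-52954790, minus strand): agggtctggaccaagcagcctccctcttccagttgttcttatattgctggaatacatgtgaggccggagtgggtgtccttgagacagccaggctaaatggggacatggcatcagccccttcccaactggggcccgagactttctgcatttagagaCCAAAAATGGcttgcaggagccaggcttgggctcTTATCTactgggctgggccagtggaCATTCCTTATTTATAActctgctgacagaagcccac
Xirp2 (chr3:72533936-72534185, plus strand): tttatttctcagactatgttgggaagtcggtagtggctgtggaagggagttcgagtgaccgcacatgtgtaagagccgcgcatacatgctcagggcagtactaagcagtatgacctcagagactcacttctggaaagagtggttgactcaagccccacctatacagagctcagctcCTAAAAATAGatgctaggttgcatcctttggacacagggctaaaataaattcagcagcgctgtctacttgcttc

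The Ankrd23 window held 1 MCAT match, 102 to 97 bases before the start. The Fhl2 window held all 4 kinds of match, with the MCAT letters at 36 to 31 bases and the MEF2 letters at 30 to 21 bases before the start adjoining each other, a CArG match at 95 to 86 bases and a GATA match at 61 to 56 bases. The Fhl1 window held a CArG match at 102 to 93 bases, and the Xirp2 window a MEF2 match at 74 to 65 bases. The second Fhl2 window held a CArG match, and the second Fhl1 window and the Ankrd2 window held none of the 4 motifs. Of the 33469 rat windows of this length, 12.1% held the MCAT letters, 1.5% a CArG match, 2.96% a MEF2 match and 10.3% the GATA letters. A match describes these letters and was not tested for binding.

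Total counts ranged from 6675287 to 19665439 per library with a median of 13074486. Within each group no library was a copy of another, and libraries of different groups were not compared for this. Marker genes of ventricular cardiomyocytes made up 4.83% to 14.3% of the counts against 0.0654% to 0.542% for endothelial cells, 0.0142% to 0.29% for fibroblasts and 0.00138% to 0.0269% for macrophages. The markers of the labelled cell type were thus present and made up the larger share, and the markers of other cells were present at low levels. LV libraries of the F groups stood apart from the early LV libraries, with 57.4% of all genes differing between the LV Sham-F and LV Sham-H libraries against 0.0502% in the RV. This difference enters each comparison of the RV with the LV at the late stage. Levels are given as normalized counts, which are counts scaled to a common library size by TMM factors, or as FPKM where genes are compared with each other. A gene was called when the Benjamini-Hochberg adjusted p over all genes of edgeR's quasi-likelihood test was under 0.05. The study's own 3 criteria were also applied, which ask for a change of more than 1 on the log2 scale in either direction, a mean above 50 normalized counts and p no higher than 0.01 before adjustment. Here they were applied to edgeR's fold changes and p-values and to TMM-scaled means. The study used DESeq2 with shrunken fold changes, so a gene that met them here need not be in the study's list. Rats are separate samples by the labels, but both ventricles of each rat enter the fit as separate libraries. Comparisons within 1 ventricle rest on different rats, while those of the RV with the LV pair libraries of the same rats, for which the fit with the animal as a block is given where it changed a call.

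Fhl2, Ankrd1 and Csrp3 were among the most abundant transcripts of these cells. Mean FPKM over all libraries was 1952 for Fhl2, 1478 for Ankrd1 and 1017 for Csrp3, which ranked at places 22, 34 and 47 of all genes of the table. Fhl1 followed at 192 FPKM, Xirp2 at 69.96, Ankrd23 at 38.6 and Ankrd2 at 0.356. Ankrd2, which is mainly a gene of slow skeletal muscle, lay between 0 and 33.9 normalized counts and is the only one of the 7 close to the limit of detection.

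The order of the genes by FPKM differed between ventricles and groups. Fhl2 was highest by group mean in 9 of 12 groups, and Ankrd1 was highest in RV PAB-H (1779 ± 345 FPKM, SD, n = 6, against 1654 ± 408 for Fhl2), RV PAB-F (2586 ± 591 against 1660.2 ± 469) and LV AOB-F (1529 ± 479 against 1405 ± 332), although their libraries overlapped in these 3 groups. In LV Sham-F the order of Ankrd1 and Csrp3 was turned, with 986 ± 262 FPKM for Csrp3 and 821 ± 395 for Ankrd1, which also overlapped. Ankrd23 lay above Xirp2 by mean in the 3 late LV groups, for example 146 ± 62.3 against 40.6 ± 20.3 FPKM in LV AOB-F, and below it in the other 9 groups. Fhl1 and Csrp3 overlapped in no group, nor did Ankrd2 with its neighbour.

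Of the 6 genes with counts in every library, Ankrd23 and Xirp2 had the widest range. The highest library exceeded the lowest 45.4-fold for Ankrd23 (156 to 7106 normalized counts) and 28.9-fold for Xirp2 (1326 to 38315). Fhl1 ranged 6.98-fold, Ankrd1 6.89-fold, Fhl2 3.47-fold and Csrp3 2.64-fold. Ankrd2 reached 0 and has no such ratio, and its biological coefficient of variation in edgeR, 0.578, was above those of Ankrd23 (0.478) and Xirp2 (0.444).

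**Figure D1:**
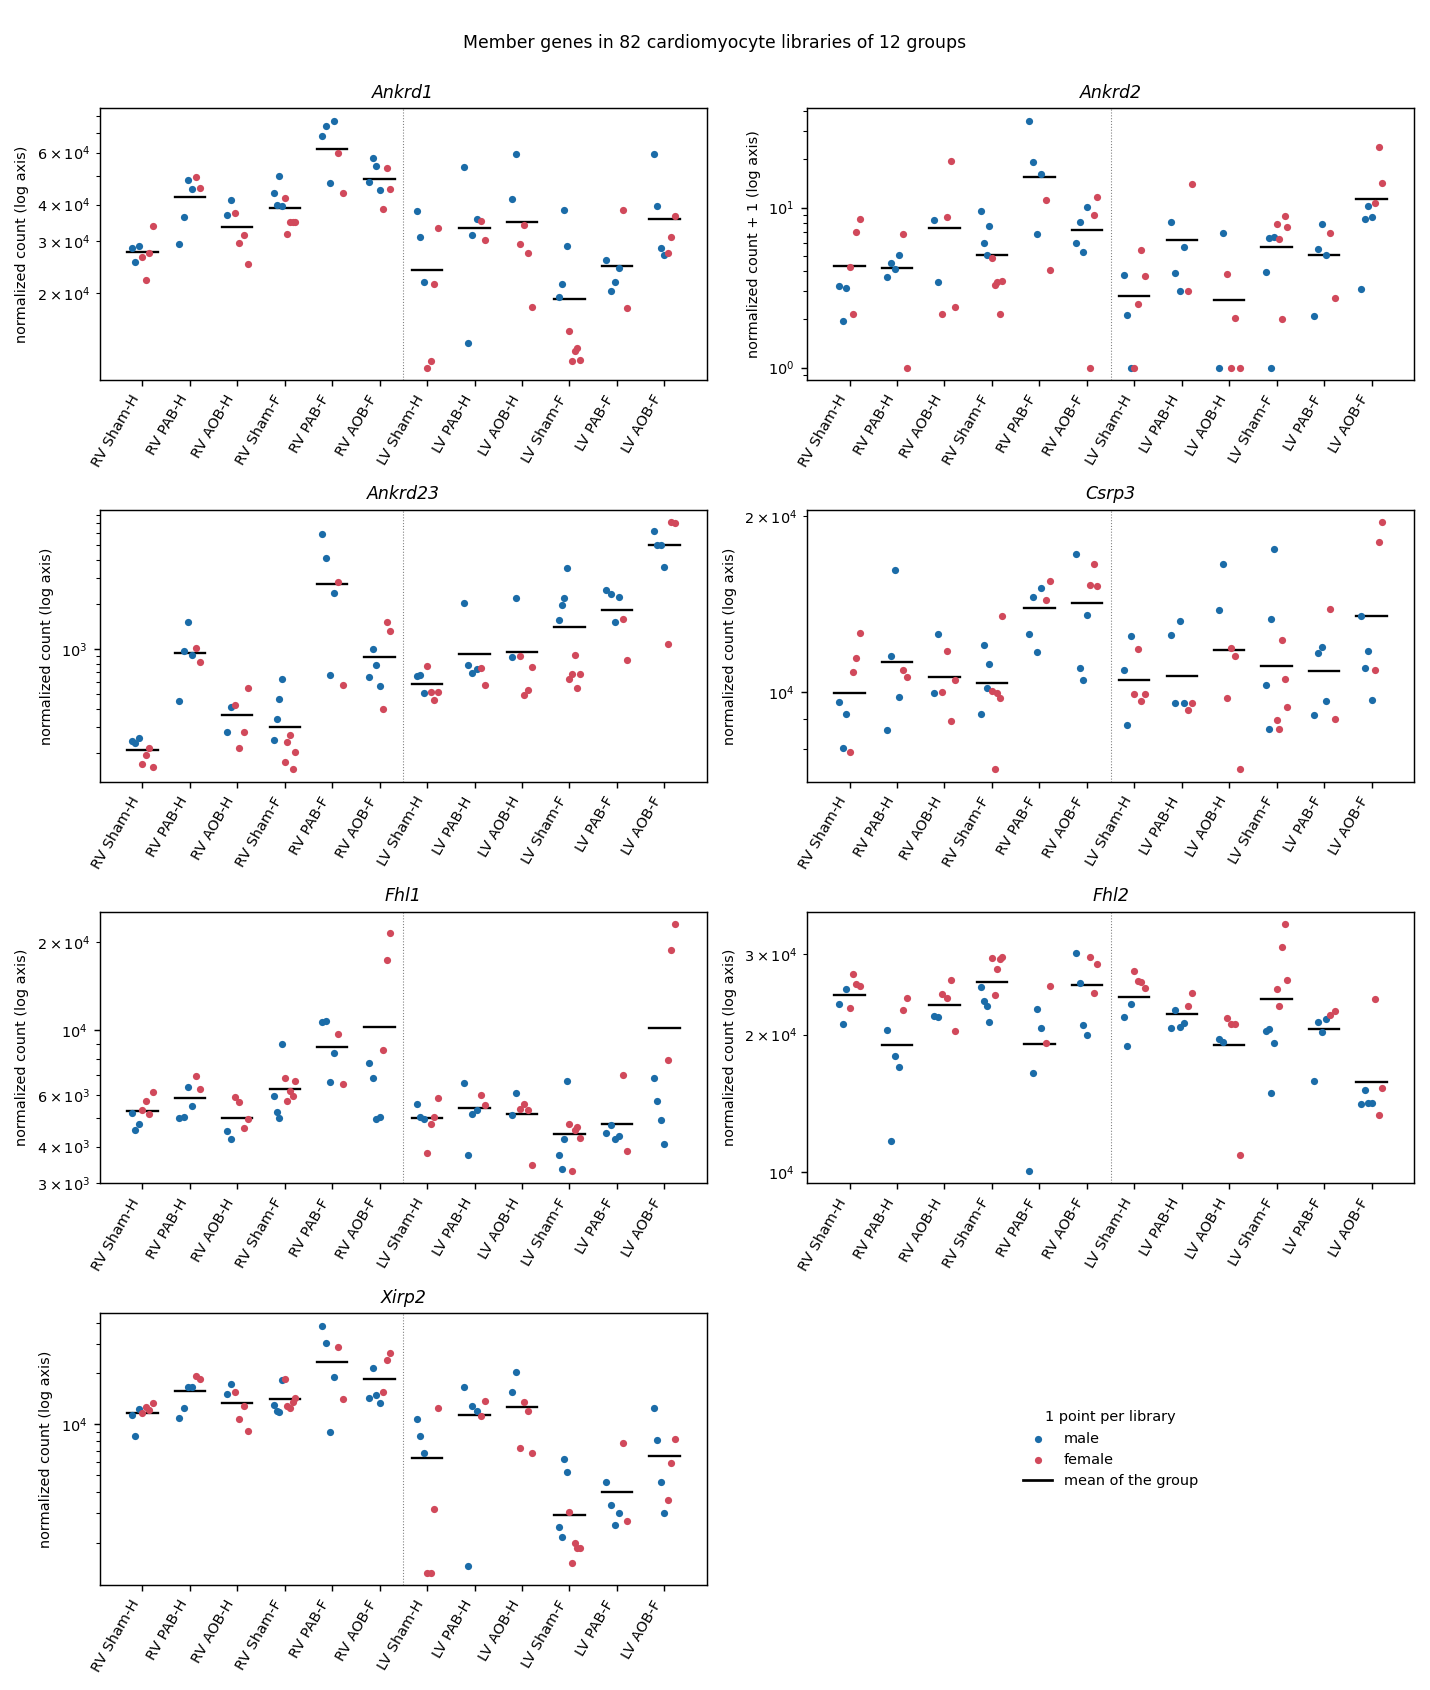
Normalized counts (log axis) of the 7 genes in all 82 libraries, each point 1 ventricle of 1 rat and each bar a group mean, by group, ventricle and sex (Ankrd2 is drawn as the count + 1). Ankrd23 in RV PAB-H lay between 449 and 1526, above all RV Sham-H libraries, and 2 AOB-F rats stood above the rest for Fhl1 in both ventricles.

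The first question was how the loaded RV differed from the RV of sham-operated rats at the compensated stage. Ankrd23 was higher in all 6 rats with PAB. It lay at 161, 216 and 252 normalized counts (lowest, median and highest) in RV Sham-H and at 449, 948 and 1526 in RV PAB-H, so that the groups did not overlap, which held for 3.24% of all genes. The fitted difference was 4.51-fold (log2 fold change 2.17 ± 0.41 (SE), 95% interval 1.36 to 2.98, adjusted p = 0.00138). It was the only 1 of the 7 genes called, where 4.5% of all genes were called, and the only 1 that met the study's criteria, as 1.82% of all genes did.

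The related Ankrd1 lay at 22221, 27388 and 33785 normalized counts in RV Sham-H and 29338, 45367 and 49597 in RV PAB-H, with 5 of 6 PAB-H rats above all sham rats, and was not called (log2 fold change 0.62 ± 0.24 (SE), adjusted p = 0.105). Fhl2 lay lower by mean and overlapped (24431 ± 2067 (SD, n = 7) in sham, 18985 ± 4470.3 (SD, n = 6) in PAB-H, adjusted p = 0.143). For the other 4 genes the log2 fold change lay between 0.041 and 0.43. When only the libraries of these groups were fitted, Ankrd1 (adjusted p = 0.00992) and Xirp2 (0.43, adjusted p = 0.0408) were called as well. That fit called 1642 of 11009 genes, a larger share than the 4.5% of the main fit.

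Other transcripts of load and of other cell types moved in the same ventricle. Nppa and Nppb, which encode natriuretic peptides, and Acta1, the skeletal actin of stressed heart muscle, were called higher, so that 3 of 4 load markers rose. No partner gene of the titin spring, Z-disc and intercalated disc was called among 20 tested by edgeR, and none of the 6 other genes of the CRP and FHL families. All 9 fibroblast markers tested were called higher, and their summed share was 0.023% to 0.044% of counts in RV Sham-H and 0.0337% to 0.29% in RV PAB-H, while 0 of 9 ventricular cardiomyocyte markers were called. Of endothelial, mural and atrial markers 1 each was called higher, of 8, 7 and 4. The part of other cells in the differences was not tested, and in bulk RNA a change in the number of cells of a type cannot be told apart from a change in RNA per cell.

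In the failing RV, 5 of the 7 genes were called against RV Sham-F, 4 higher and 1 lower, where 11.1% of all genes were called, 7.66% higher and 3.42% lower. The median log2 fold change was 0.66 over the 7 genes and 0.016 over all genes tested. The study's criteria were met by 1 of the 7, Ankrd23, and by 1.9% of all genes.

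Of the ankyrin repeat genes, Ankrd23 differed most. RV Sham-F lay at 156, 247 and 629 normalized counts and the 6 PAB-F rats at 5959.8, 4069, 671, 2385, 2807 and 575. The PAB-F rats thus spanned a wide range, with 5 of 6 above all sham rats and the lowest within the sham range. Ankrd23 rose 9.06-fold (log2 fold change 3.18 ± 0.38 (SE), 95% interval 2.43 to 3.93, adjusted p = 3.2e-09) and held place 13 of all 11954 genes by fold change.

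Ankrd1 lay at 31851, 39503 and 49868 in RV Sham-F and 43663, 64176 and 77047 in RV PAB-F, with 4 of 6 rats above all sham rats (1.58-fold, log2 0.66 ± 0.22 (SE), adjusted p = 0.0418). Ankrd2 was found at 1.15, 3.85 and 8.55 and 3.09, 12.7 and 33.9 normalized counts, again with 4 of 6 above all sham rats (log2 1.77 ± 0.53 (SE), adjusted p = 0.0204). The groups overlapped for both genes. At counts this low, each Ankrd2 value rests on few reads.

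Of the LIM genes, Csrp3 rose from 7394, 10030.3 and 13514 to 11703, 14445 and 15470.2 normalized counts (1.35-fold, log2 0.43 ± 0.15 (SE), adjusted p = 0.0451). Fhl2 fell and was the only 1 of the 7 called lower. It lay at 21357, 25426 and 29532 in RV Sham-F and 10064, 19914 and 25557 in RV PAB-F, where 4 of 6 rats were below all sham rats (log2 -0.45 ± 0.14 (SE), adjusted p = 0.0335). Fhl1 (6301 ± 1169.6 (SD, n = 9) in sham, 8776 ± 1888 (SD, n = 6) in PAB-F, adjusted p = 0.158) was not called, nor was Xirp2 of the intercalated disc (14083 ± 2542 (SD, n = 9) in sham, 23287 ± 11015 (SD, n = 6) in PAB-F, adjusted p = 0.147).

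The Ankrd23 call held without any 1 of the 15 libraries (log2 2.80 to 3.39), and the other 4 did not. Ankrd1 lost its call without any 1 of 11 libraries, that is without each one except RV Sham-F replicates 1 and 3 and RV PAB-F replicates 3 and 6 (log2 0.59 to 0.74, adjusted p up to 0.141). Csrp3 lost it without any 1 of 12 libraries, each one except RV Sham-F replicates 2 and 9 and RV PAB-F replicate 3 (log2 0.38 to 0.48, adjusted p up to 0.0911). Fhl2 lost it without RV Sham-F replicates 8 or 9 or RV PAB-F replicates 1, 2 or 5 (log2 -0.55 to -0.31, adjusted p up to 0.239). Ankrd2 lost it without RV PAB-F replicate 1 (log2 1.35, adjusted p = 0.187) or 2 (log2 1.68, adjusted p = 0.0535). Ankrd1 also lost its call with sex as a covariate (adjusted p = 0.0554) or no filter on low counts (adjusted p = 0.0821), Csrp3 with DESeq2 (adjusted p = 0.0515), RLE factors (adjusted p = 0.0586) or no filter (adjusted p = 0.117), and Fhl2 with upper-quartile factors (adjusted p = 0.0528). With only these groups fitted, Fhl1 (adjusted p = 0.017) and Xirp2 (adjusted p = 0.0275) were called, in a fit that called 2726 of 11067 genes.

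The load markers Nppa, Nppb, Acta1 and Myh7, the slow myosin heavy chain, were all called higher in RV PAB-F (4 of 4). Of the 20 partner genes tested 1 was called, Flnc, which encodes the filamin of muscle Z-discs (log2 0.70 ± 0.18 (SE), adjusted p = 0.00551). Of the 6 other CRP and FHL genes, Csrp2 rose (log2 1.31 ± 0.25 (SE), adjusted p = 0.000169) and Fhl3 fell (log2 -0.56 ± 0.16 (SE), adjusted p = 0.0156), both named here after their values were seen. Fibroblast markers were called higher for 6 of 9, at 0.0142% to 0.0486% of counts in RV Sham-F and 0.0257% to 0.194% in RV PAB-F. Macrophage markers were called higher for 3 of 8, endothelial for 2 of 8, mural for 1 of 7 and atrial for 1 of 4, with none lower. The macrophage sum was 0.00138% to 0.0045% in RV Sham-F and 0.00238% to 0.0171% in RV PAB-F, and the endothelial sum 0.0654% to 0.111% and 0.0897% to 0.205%. Ventricular cardiomyocyte markers summed to 10.8% to 14.3% and 7.36% to 11.98%, with 0 of 9 called. Their part in the differences was not tested.

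In the LV at the compensated stage of AOB, edgeR called 0 of the 7 genes and 0.0167% of all genes, and DESeq2 also called 0 of the 7. At an unadjusted p under 0.05 there were 3, Ankrd1 (11178, 21907 and 37908 in LV Sham-H, 17948, 31743 and 59199 in LV AOB-H, log2 0.54 ± 0.24 (SE), adjusted p = 0.194), Xirp2 (1326, 6758 and 12448, then 6742, 12760.3 and 20522, log2 1.0 ± 0.36 (SE), adjusted p = 0.137) and Fhl2 (log2 -0.35 ± 0.15 (SE), adjusted p = 0.188). All 3 overlapped with sham. Ankrd23, the gene that rose in the compensated RV, lay at 457, 519 and 771 and 497, 823 and 2206 (log2 0.72 ± 0.39 (SE), adjusted p = 0.292, 95% interval -0.064 to 1.49), an interval that leaves room for a rise of more than 1 on the log2 scale. No load marker, partner gene, other CRP or FHL gene or fibroblast marker was called.

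In the failing LV of AOB, 5 of the 7 genes were called against LV Sham-F, 4 higher and 1 lower, where 12.9% of all genes were called, 8.54% higher and 4.35% lower. The median log2 fold change was 1.15 over the 7 genes and 0.038 over all genes. Ankrd23, Fhl1 and Xirp2 met the study's criteria, as did 1.21% of all genes.

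Ankrd23 lay at 552, 911 and 3534 normalized counts in LV Sham-F and at 6259, 4989, 5001, 3573, 1089, 7106 and 7014 in the 7 LV AOB-F libraries. The highest sham rat was below 6 of 7 AOB-F rats, and 1 AOB-F rat lay inside the sham range. It rose 3.53-fold (log2 fold change 1.82 ± 0.35 (SE), 95% interval 1.12 to 2.52, adjusted p = 0.000448). Ankrd1 rose from 11779.6, 14938 and 38374 to 27036, 30994 and 59209.6 (1.86-fold, log2 0.89 ± 0.21 (SE), adjusted p = 0.00375). The groups overlapped for both. Ankrd2 (log2 1.15 ± 0.50 (SE), adjusted p = 0.113) was not called.

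Fhl1 showed 2 kinds of libraries. LV Sham-F lay at 3300.4, 4272 and 6728 normalized counts, while the 7 LV AOB-F libraries lay at 6848, 5736, 4948, 4079, 7883, 18819.9 and 23049. Rats 6 and 7, both female, stood far above the others and the first 5 lay in or near the sham range. The RV of the same 7 rats gave 7712, 6881, 4958, 5039, 8522, 17350.1 and 21464, so that the same pair of rats was high in both ventricles. Over all 7 rats Fhl1 rose 2.31-fold in the LV (log2 1.21 ± 0.22 (SE), adjusted p = 0.000176), and without rats 6 and 7 the difference was log2 0.43, adjusted p = 0.0843. Without these rats Ankrd23 (log2 1.57, adjusted p = 0.0172), Ankrd1 (log2 0.93, adjusted p = 0.0248) and Fhl2 (log2 -0.55, adjusted p = 0.0402) were still called. Ankrd1, Ankrd23, Fhl1 and Fhl2 kept their calls without any 1 of the 16 libraries.

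Fhl2 fell, as it did in the failing RV. It lay at 14935, 23076 and 34909 normalized counts in LV Sham-F and 13358, 14182 and 23887 in LV AOB-F (log2 -0.61 ± 0.14 (SE), adjusted p = 0.00244), with overlap. Csrp3 was not called (log2 0.28 ± 0.14 (SE), adjusted p = 0.169), except without LV Sham-F replicate 4 (log2 0.41, adjusted p = 0.0352). Xirp2 lay at 1513, 2146 and 6209.9 in sham and 2978, 5909.9 and 12481 in AOB-F, rose 2.24-fold (log2 1.16 ± 0.33 (SE), adjusted p = 0.0123) and lost its call without LV AOB-F replicate 1 (log2 0.93, adjusted p = 0.0669) or without rats 6 and 7 (log2 1.13, adjusted p = 0.0608). When only the libraries of LV AOB-F and LV Sham-F were fitted, none of the 5 calls remained (adjusted p = 0.0658 for Ankrd23 to 0.0951 for Fhl2) and 15 genes were called in all.

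Nppa was called among the 4 load markers in LV AOB-F (log2 1.95 ± 0.51 (SE), adjusted p = 0.00661). Of the 20 partner genes, 2 were called higher and 2 lower, among them Pdlim5, a Z-disc LIM protein (log2 0.82 ± 0.17 (SE), adjusted p = 0.000928), Capn3, a protease that binds titin (log2 -0.80 ± 0.26 (SE), adjusted p = 0.0313), and Trim63, the ubiquitin ligase MuRF1 (log2 -0.68 ± 0.18 (SE), adjusted p = 0.00654). Of the 6 other CRP and FHL genes edgeR called 0. Of the markers of other cells 1 of 9 fibroblast, 3 of 8 macrophage, 2 of 8 endothelial and 1 of 7 mural genes were called higher. Ventricular cardiomyocyte markers summed to 8.01% to 10.3% of counts in LV Sham-F and 4.83% to 10.5% in LV AOB-F, with 0 of 9 called. Their part was not tested.

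**Figure D2:**
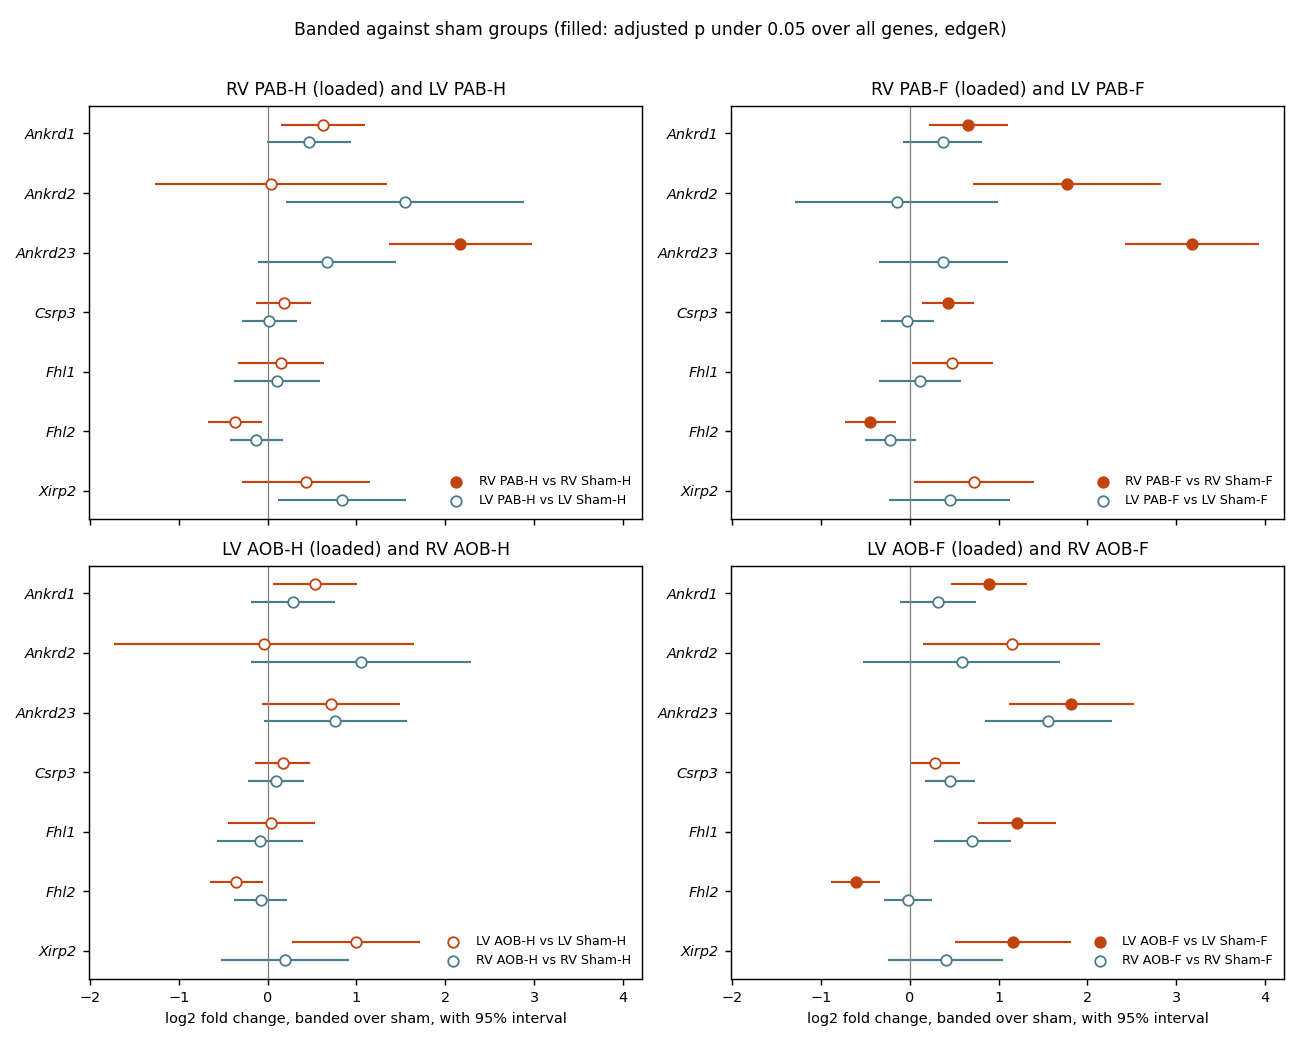
Log2 fold change of each gene in banded against sham-operated rats, with 95% intervals, at both stages, filled points being called. The ventricle loaded by the clip and the other ventricle are shown. Ankrd23 lay highest in the failing RV of PAB at 3.18, and Fhl2 was the 1 gene called lower, at -0.45 there and at -0.61 in the failing LV of AOB.

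The other ventricle, not directly loaded by the clip, was compared in the same way, to see whether the genes moved there too. No load measured in that ventricle was used. In the LV of PAB rats, edgeR called 0 of the 7 genes at the H stage (0% of all genes, 2 of the 7 at an unadjusted p under 0.05) and 0 at the F stage (0% of all genes, 0 of the 7 at that p), and DESeq2 called 0 at both. Ankrd23 lay at 850.1, 1925 and 2490.3 normalized counts in LV PAB-F, within the range of LV Sham-F (log2 0.38, 95% interval -0.35 to 1.10). In the RV of AOB-H rats 0 were called as well (0% of all genes, 0 of the 7 at an unadjusted p under 0.05, 0 by DESeq2), although Ankrd23 lay above all sham rats in 5 of 6 (log2 0.76, 95% interval -0.039 to 1.57).

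The RV of AOB-F rats stood between these cases. Ankrd23 lay at 395, 778 and 1528 normalized counts against 156, 247 and 629 in RV Sham-F, with 5 of 7 rats above all sham rats (log2 1.56 ± 0.36 (SE), adjusted p = 0.0546), just outside the threshold. With edgeR 0 of the 7 genes and 0.0669% of all genes were called, 3 of the 7 had an unadjusted p under 0.05, and DESeq2 called 1, Ankrd23 (adjusted p = 0.026). With sex as a covariate edgeR called it too (log2 1.63, adjusted p = 0.00883), and it met the study's criteria, as 0.259% of all genes did. It was also called without RV Sham-F replicate 4 (log2 1.77, adjusted p = 0.0111), RV AOB-F replicate 4 (log2 1.64, adjusted p = 0.0401) or RV AOB-F replicate 5 (log2 1.68, adjusted p = 0.0239). Without rats 6 and 7 the log2 fold change was 1.16 and was not called. Of the load markers Nppa alone was called in this ventricle.

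Whether the response differed between ventricles or stages was tested on the difference itself. In PAB-F rats the Ankrd23 response was larger in the RV than in the LV by 2.80 ± 0.53 (SE) on the log2 scale (95% interval 1.74 to 3.87, adjusted p = 0.00313). It was the only 1 of the 7 genes called, where 0.351% of all genes were called, and the call held without any 1 of the 30 libraries (log2 2.42 to 3.02). In PAB-H rats the same difference was 1.5 ± 0.56 (SE), adjusted p = 0.422 for Ankrd23, and edgeR called 0 of the 7 (0% of all genes, 1 of the 7 at an unadjusted p under 0.05).

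In AOB rats the LV minus the RV response gave 0 calls by edgeR at both stages (0% and 0% of all genes, 0 and 1 of the 7 at an unadjusted p under 0.05). At the F stage Ankrd23 differed by 0.26 (95% interval -0.74 to 1.26) and Fhl2 by -0.59 (95% interval -0.97 to -0.20). Between the F and H stages edgeR called 0 in the RV of PAB (0% of all genes, 0 of the 7 at an unadjusted p under 0.05) and 0 in the LV of AOB (0%, 2 of the 7). Ankrd23 responses differed there by 1.01 (95% interval -0.078 to 2.10) and 1.10 (95% interval 0.053 to 2.15). Between the failing RV of PAB and the failing LV of AOB, edgeR called 0 of the 7 and 3.15% of all genes, with 2 of the 7 at an unadjusted p under 0.05, Ankrd23 (1.36 ± 0.51 (SE), adjusted p = 0.107) and Fhl1 (-0.73 ± 0.32 (SE), adjusted p = 0.161). Without LV AOB-F replicate 3, Fhl1 was called for the F minus H response of the LV (log2 1.284, adjusted p = 0.0475). DESeq2 called 0 in each of the comparisons with no call in this set of response differences.

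The genes also differed between the ventricles of the same rats, and Ankrd23 and Xirp2 lay on opposite sides. In Sham-H rats Ankrd23 was lower in the RV, 161, 216 and 252 normalized counts against 457, 519 and 771 in the LV, with no overlap, as for 4.59% of all genes (log2 -1.48 ± 0.39 (SE), adjusted p = 0.00591). It was the 1 gene of the 7 called, where 21% of all genes were called. Xirp2 was not called (log2 0.89 ± 0.35 (SE), adjusted p = 0.0573) in the fit used throughout, but was called in 5 alternatives, with the animal as a block (log2 1.3, adjusted p = 0.00404), the replicate number as a block (adjusted p = 0.0362), DESeq2 (adjusted p = 0.0321), upper-quartile factors (adjusted p = 0.0451) or sex as a covariate (adjusted p = 0.0473). It was also called without LV Sham-H replicate 1 (log2 1.07, adjusted p = 0.0239), 2 (log2 0.99, adjusted p = 0.0437) or 7 (log2 1.15, adjusted p = 0.0146). Of other genes 5 of 8 endothelial markers, 2 of 7 mural markers, 1 of 9 fibroblast markers and 3 of 4 load markers were called lower in the RV of Sham-H rats, and the endothelial sum was 0.077% to 0.111% of counts in the RV and 0.111% to 0.296% in the LV. In PAB-H rats edgeR and DESeq2 called 0 of the 7 (0.125% of all genes, 0 of the 7 at an unadjusted p under 0.05), and the Ankrd23 difference was 0.028 (95% interval -0.78 to 0.83).

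In AOB-H rats Ankrd23 was again lower in the RV, at 218, 345 and 548 against 497, 823 and 2206 (log2 -1.43 ± 0.42 (SE), adjusted p = 0.0192), the 1 gene of the 7 called where 7.98% of all genes were called. The call was lost without LV AOB-H replicate 2 (log2 -0.996, adjusted p = 0.143) or RV AOB-H replicates 4 (log2 -1.32, adjusted p = 0.0608) or 5 (log2 -1.36, adjusted p = 0.0534). Ankrd2 was called in addition without LV AOB-H replicate 2 (log2 2.80, adjusted p = 0.0224) or RV AOB-H replicate 6 (log2 2.13, adjusted p = 0.0433). In the same rats 7 of 8 endothelial and 2 of 4 load markers were called lower in the RV, with an endothelial sum of 0.0729% to 0.264% there and 0.135% to 0.542% in the LV. The part of these cells in the Ankrd23 differences was not tested.

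At the late stage most genes differed between the ventricles, so the counts of called genes carry little weight there. In Sham-F rats 74.3% of all genes and 4 of the 7 were called. Ankrd1 (log2 1.03 ± 0.20 (SE), adjusted p = 6.9e-06), Fhl1 (log2 0.52 ± 0.21 (SE), adjusted p = 0.0213) and Xirp2 were higher in the RV and Ankrd23 was lower (log2 -2.23 ± 0.35 (SE), adjusted p = 3.6e-08). Xirp2 lay at 11775, 12964 and 18430.0 normalized counts in the RV and 1513, 2146 and 6209.9 in the LV, with no overlap (41.8% of all genes), which was 4.83-fold (log2 2.27 ± 0.32 (SE), adjusted p = 2.6e-09).

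In PAB-F rats 61.1% of all genes and 4 of the 7 were called, all higher in the RV, with no overlap for Xirp2 and Ankrd1 (23.2% of all genes). Xirp2 was 5.85-fold higher (log2 2.55 ± 0.40 (SE), adjusted p = 3.1e-07), Ankrd1 2.49-fold (log2 1.32 ± 0.25 (SE), adjusted p = 8.3e-06), Ankrd2 3.34-fold (log2 1.74 ± 0.58 (SE), adjusted p = 0.00707) and Fhl1 1.84-fold (log2 0.88 ± 0.25 (SE), adjusted p = 0.00215). Ankrd23, which was lower in the RV of sham rats, differed by 0.57 ± 0.40 (SE), adjusted p = 0.214 here. Csrp3 just missed the threshold (0.36 ± 0.16 (SE), adjusted p = 0.0501) and passed it with the animal as a block (log2 0.37, adjusted p = 0.0176) and without any 1 of RV PAB-F replicates 1 and 3 and LV PAB-F replicates 3 and 5 (adjusted p from 0.0198 to 0.0477).

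In AOB-F rats 67.1% of all genes and 3 of the 7 were called. Ankrd23 was lower in the RV (395, 778 and 1528 against 1089, 5001 and 7106, log2 -2.49 ± 0.39 (SE), adjusted p = 1.1e-07), while Xirp2 (log2 1.51 ± 0.36 (SE), adjusted p = 0.000159) and Fhl2 (log2 0.71 ± 0.15 (SE), adjusted p = 2.0e-05) were higher. Xirp2 did not overlap between the ventricles (30.3% of all genes). Ankrd1 was not called (log2 0.45 ± 0.23 (SE), adjusted p = 0.0757) except with the animal as a block (log2 0.50, adjusted p = 0.0161), with these groups alone (adjusted p = 0.0261), with the replicate number as a block (adjusted p = 0.0481) or without LV AOB-F replicate 1 (log2 0.62, adjusted p = 0.017).

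Other genes moved between the ventricles with these. In Sham-F rats 13 of the 20 partner genes were higher and 3 lower in the RV, and 6 of 9 fibroblast, 6 of 8 endothelial, 5 of 8 macrophage, 4 of 7 mural and 3 of 4 load markers were lower there, while 1 endothelial marker was higher. In AOB-F rats 7 of 9 fibroblast, 7 of 8 endothelial, 7 of 8 macrophage, 4 of 7 mural and 3 of 4 load markers were lower in the RV. In PAB-F rats 5 of 8 endothelial, 4 of 8 macrophage, 4 of 7 mural and 3 of 9 fibroblast markers were lower, 1 endothelial and 2 fibroblast markers were higher, and 0 of 4 load markers were called. Of 9 ventricular cardiomyocyte markers, 5 were higher and 2 lower in the RV of Sham-F, 4 and 2 in PAB-F, and 5 and 1 in AOB-F. They summed to 10.8% to 14.3% of counts in RV Sham-F and 8.01% to 10.3% in LV Sham-F, without overlap, while the sums overlapped in PAB-F and AOB-F. Xirp2 has the longest transcript of the 7 by the table (12057 bases). The 43 tested genes at least as long had a median log2 difference between RV and LV of 0.59 in Sham-F, 0.67 in PAB-F and 0.57 in AOB-F, below that of Xirp2 but above that of all genes (-0.069, 0.032 and -0.054). The part of transcript length, of other cells and of the cardiomyocyte share in the Xirp2 difference was not tested, nor was the part of the cells in the other differences.

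**Figure D3:**
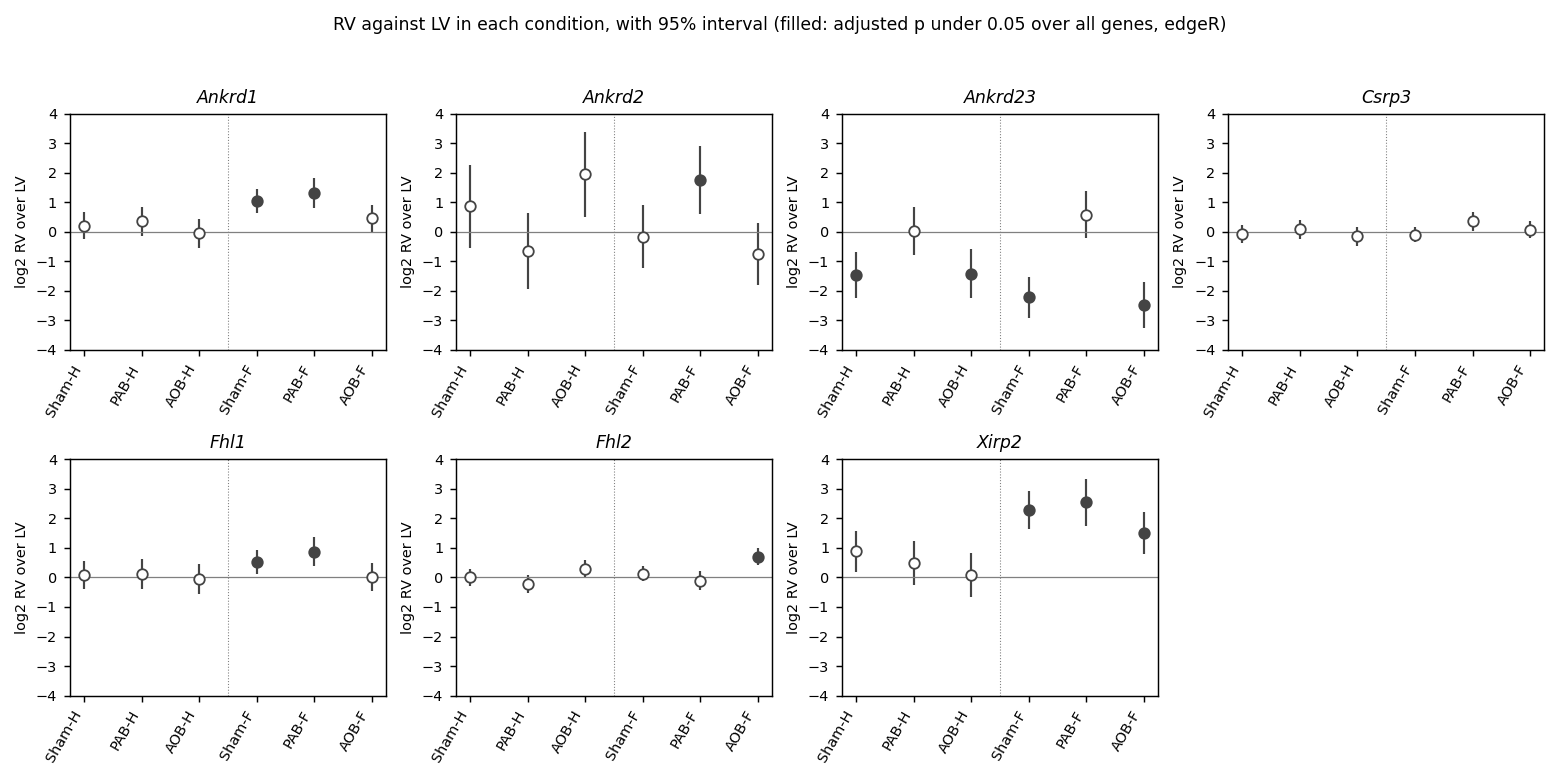
Log2 difference between RV and LV for each gene in the 6 groups of rats, with 95% intervals, positive values being higher in the RV. Xirp2 lay above 0 in the 3 late groups (2.27, 2.55 and 1.51), and Ankrd23 lay below 0 in all but the PAB groups.

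Between the sham groups, which differ in age and time after surgery, edgeR called 0 of the 7 genes in the RV and 0.0502% of all genes, with 1 of the 7 at an unadjusted p under 0.05 and 0 by DESeq2. That gene was Ankrd1, higher in 8 of 9 Sham-F rats than in every Sham-H rat (log2 0.50 ± 0.22 (SE), adjusted p = 0.871). It was called when only these libraries were fitted (adjusted p = 0.00871, 141 of 10874 genes called). In the LV 2 of the 7 and 57.4% of all genes were called. Ankrd23 was higher in the older rats (552, 911 and 3534 against 457, 519 and 771, log2 1.27 ± 0.37 (SE), adjusted p = 0.00226) and Xirp2 was lower (1513, 2146 and 6209.9 against 1326, 6758 and 12448, log2 -1.11 ± 0.33 (SE), adjusted p = 0.00286). Ankrd2 missed the threshold (log2 1.37 ± 0.63 (SE), adjusted p = 0.0555) and was called by DESeq2 (adjusted p = 0.0465) and without LV Sham-H replicate 6 (log2 1.69, adjusted p = 0.0305), LV Sham-F replicate 3 (log2 1.52, adjusted p = 0.0304) or LV Sham-F replicate 7 (log2 1.49, adjusted p = 0.0399). Without LV Sham-F replicate 3, Ankrd1 was called lower as well (log2 -0.54, adjusted p = 0.0233). Genes at least as long as Xirp2 had a median log2 difference of -0.44 in the LV. Markers of other cells were called higher in LV Sham-F for 5 of 9 fibroblast, 5 of 8 macrophage, 4 of 7 mural and 3 of 8 endothelial genes, and 1 endothelial marker was called lower. Of the ventricular cardiomyocyte markers 5 of 9 were called lower and 2 higher, and they summed to 9.58% to 13.5% of counts in LV Sham-H and 8.01% to 10.3% in LV Sham-F. The part of these cells in the Ankrd23 and Xirp2 differences was not tested.

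Both ventricles of a rat share the animal, and the rats of a group varied in step between them for some of the genes. For each gene the log2 CPM less the group mean was compared between the RV and the LV over 41 rats. Of 7 tests by permutation within groups, 4 passed at an adjusted p under 0.05. Genes outside the list were not tested singly, so this count cannot be set against a share of all genes. Taken over all tested genes together, the 2 libraries of a rat also deviated in step (median r 0.186 in Sham-H to 0.297 in AOB-F). Those deviations were centred on the group and not on sex. Fhl1 gave r = 0.84 (permutation p = 1e-05, adjusted 7.0e-05) and rho = 0.58 (permutation p = 0.00046, adjusted 0.00107), with r = 0.70 without the 2 rats farthest from the median, where 1e-05 is the smallest p the permutations can give. Ankrd23 gave r = 0.55 (permutation p = 0.0002, adjusted 0.000467) and rho = 0.60 (permutation p = 0.00025, adjusted 0.000875), with r = 0.55 without the 2 rats farthest from the median. Fhl2 (r = 0.50, rho = 0.60, adjusted p = 7.0e-05) and Ankrd1 (r = 0.44, rho = 0.48, adjusted p = 0.00877) also passed. Xirp2 (r = 0.27), Csrp3 (r = 0.26) and Ankrd2 (r = -0.16) did not. When values were centred and permuted within group and sex, an alternative chosen after seeing the data, Fhl1 (r = 0.78, adjusted permutation p = 0.00203), Ankrd23 (r = 0.50, adjusted permutation p = 0.03) and Fhl2 (r = 0.38, adjusted permutation p = 0.0254) still passed, Xirp2 passed (r = 0.34, adjusted permutation p = 0.0254) and Ankrd1 did not (r = 0.34, adjusted permutation p = 0.168).

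**Figure D4:**
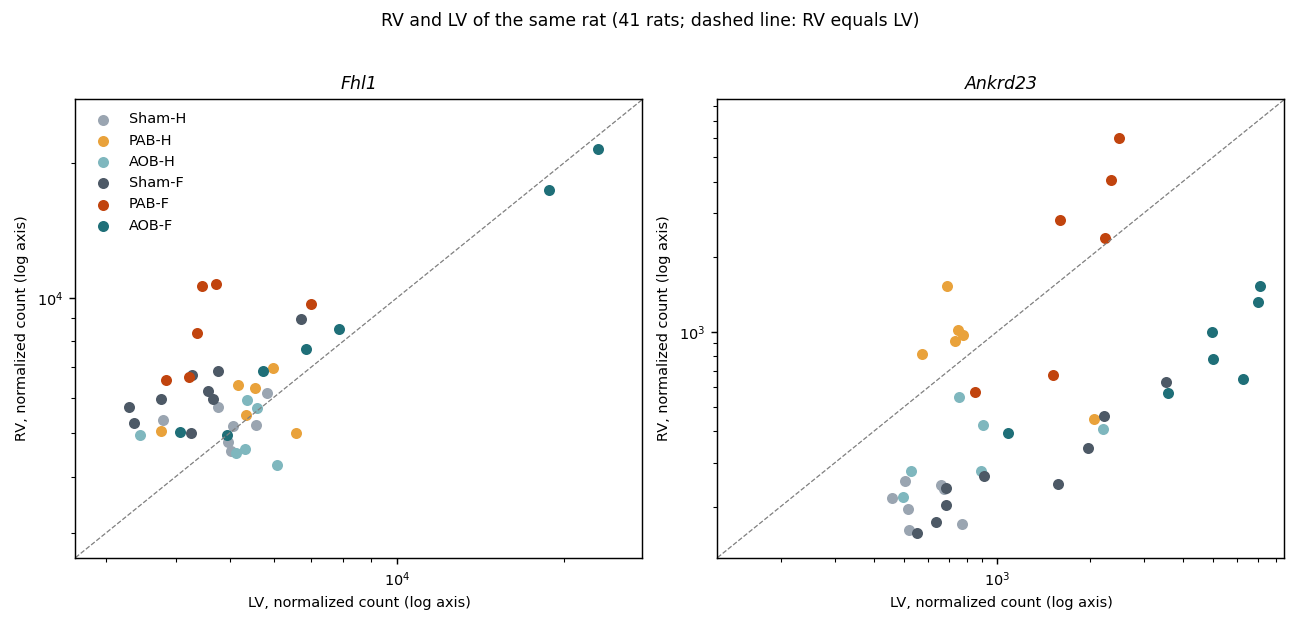
Normalized counts of Fhl1 and Ankrd23 in the LV (x axis) and the RV (y axis) of each of the 41 rats, on log axes, coloured by group, with a dashed line where both are equal. AOB-F rats 6 and 7 lie at the upper right for Fhl1. For Ankrd23 some PAB-F rats reach above the line and at least 2 lie below it, as do the AOB-F rats.

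Among the genes themselves, 42 pairs were tested in the same way, in each ventricle over 41 libraries, and 19 passed, 17 of them positive. Pairs of genes outside the list were not tested, so how often such pairs pass is not known. The closest pair was Ankrd1 with Xirp2 in the LV (r = 0.90 (adjusted p = 0.00021), rho = 0.88 (adjusted p = 0.00042), and r = 0.89 without the 2 farthest libraries), which gave r = 0.59 (adjusted p = 0.00609) in the RV. Csrp3 and Fhl1 varied together in the LV (r = 0.71 (adjusted p = 0.00021), rho = 0.59 (adjusted p = 0.00259)), and Fhl1 and Xirp2 in the RV (r = 0.63 (adjusted p = 0.00028), rho = 0.68 (adjusted p = 0.00063)). The 2 negative pairs were Ankrd23 with Fhl2 in the RV (r = -0.59 (adjusted p = 0.00848), rho = -0.53 (adjusted p = 0.00903)) and in the LV (r = -0.58 (adjusted p = 0.00719), rho = -0.63 (adjusted p = 0.00112)). Both genes also differed between the sexes over all groups, with a log2 difference of females minus males of 0.26 for Fhl2 and -0.57 for Ankrd23. With values centred and permuted within group and sex 13 of the 42 pairs passed, among them Ankrd1 with Xirp2 (LV r = 0.92, adjusted permutation p = 0.00021), and Ankrd23 with Fhl2 passed in the RV (r = -0.60, adjusted permutation p = 0.0477) but not in the LV (r = -0.43, adjusted permutation p = 0.126). Both values of a point come from 1 library and share its depth and scaling.

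The genes were also compared with Nppb, the transcript of the natriuretic peptide BNP and a load marker of the list above. Nppb is itself a transcript read from the same library, and no load measured in each rat was used. The part of the cell mixture in these correlations was not tested. Within the 12 RV libraries of PAB rats, centred on their group, Xirp2 gave r = 0.90 (permutation p = 0.00019, adjusted 0.00266) and rho = 0.90 (permutation p = 0.00054, adjusted 0.00455), with r = 0.82 without the 2 libraries farthest from the median. Ankrd23 (r = 0.89, rho = 0.86, adjusted permutation p = 0.00343), Fhl1 (r = 0.88, rho = 0.90, adjusted permutation p = 0.00481) and Ankrd1 (r = 0.79, rho = 0.71, adjusted permutation p = 0.014 for r and 0.0509 for rho) followed Nppb as well. Within the 13 LV libraries of AOB rats Ankrd23 alone passed (r = 0.77, rho = 0.79, adjusted permutation p = 0.014, r = 0.73 without the 2 farthest libraries). In all 5 of 14 tests passed. Genes outside the list were not tested against Nppb, so this count cannot be set against a share of all genes. Csrp3 and Fhl2 passed in neither ventricle. Centred within group and sex, Ankrd23 in the LV of AOB rats no longer passed (r = 0.73, adjusted permutation p = 0.0966), Ankrd2 passed in the RV of PAB rats (r = 0.74, adjusted permutation p = 0.0143), and the other 4 still passed.

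**Figure D5:**
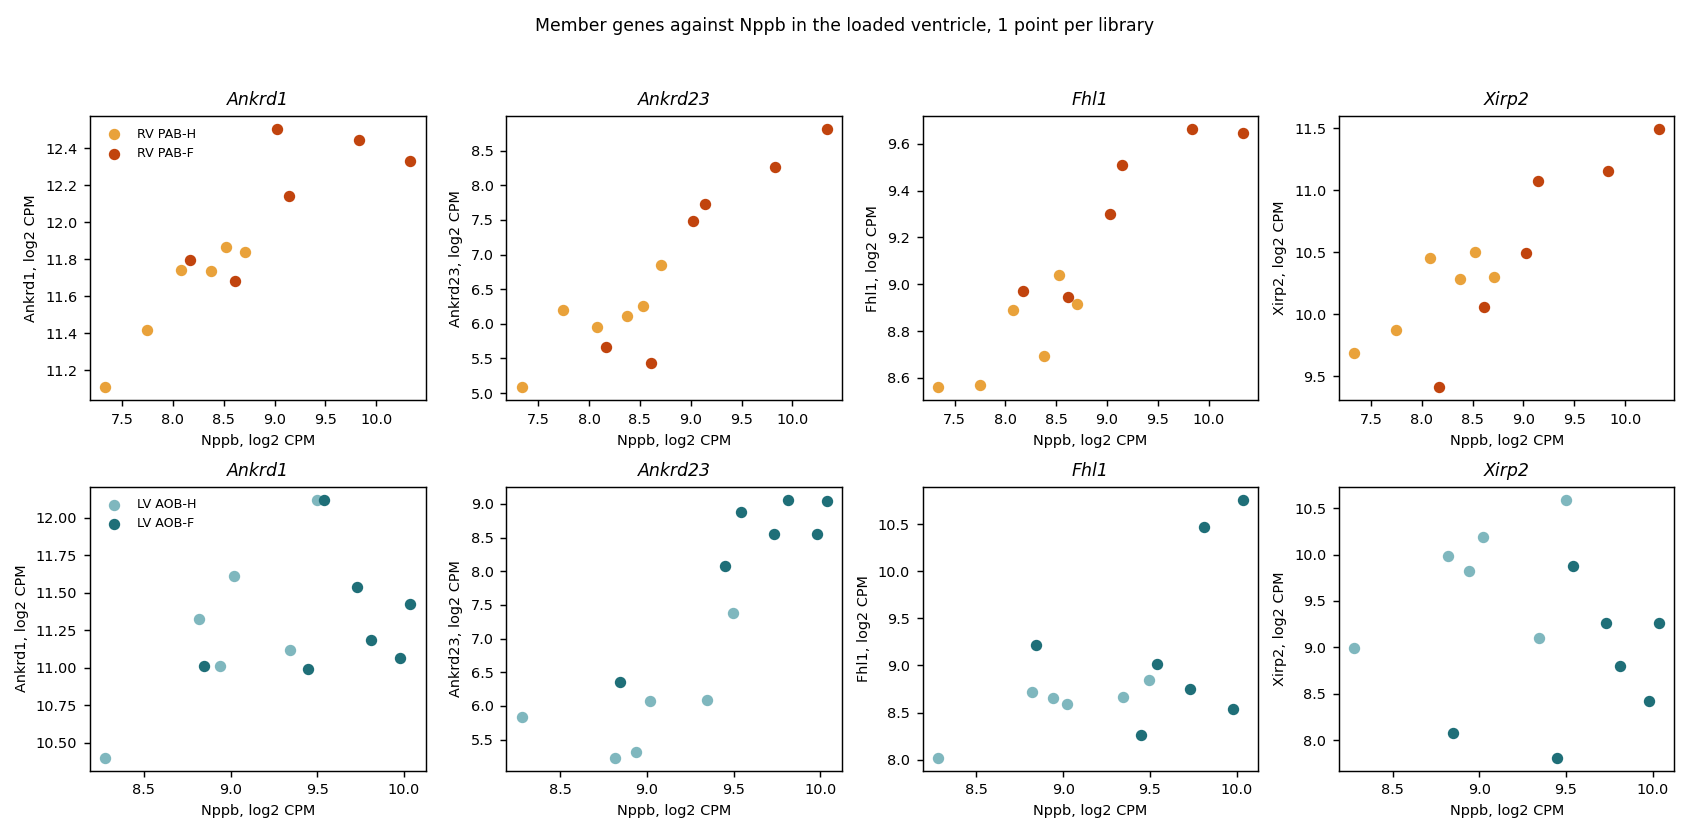
Level (log2 CPM, not centred) of Ankrd1, Ankrd23, Fhl1 and Xirp2 against that of Nppb in the RV of the 12 PAB rats and the LV of the 13 AOB rats, 1 point per library, by stage. Ankrd23 is highest where Nppb is highest in both ventricles, while Xirp2 in the LV of AOB rats did not pass the test (r = 0.46 and rho = 0.5 after centring on the group, adjusted permutation p = 0.164 for r).

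Sex was tested with the group means in the fit, over 40 female and 42 male libraries, where 17.2% of all genes and 4 of the 7 were called. Both ventricles of each rat enter this fit, so its p-values are too small for a comparison of rats. Fhl2 was higher in females (log2 0.26 ± 0.054 (SE), adjusted p = 0.00026), with a higher female median in 12 of 12 groups. Its male and female libraries did not overlap in 5 groups, RV PAB-H, LV Sham-H, LV PAB-H, LV Sham-F and LV PAB-F, where 30%, 11.3%, 15.3%, 9.24% and 21.8% of all genes did not. Ankrd23 (log2 -0.57 ± 0.15 (SE), adjusted p = 0.00478) and Ankrd1 (log2 -0.33 ± 0.089 (SE), adjusted p = 0.00613) were lower in females, by median in 9 and 10 of 12 groups.

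In LV Sham-F the sexes were separated for 3 of the genes. The 4 males lay between 1574 and 3534 normalized counts for Ankrd23 and the 5 females between 552 and 911. For Ankrd1 the males lay between 19471 and 38374 and the females between 11779.6 and 14938, and for Fhl2 between 14935 and 20566 and between 23076 and 34909. None of these 3 overlapped, where 9.24% of all genes did not. In RV Sham-H the Ankrd23 ranges were 235 to 252 in males and 161 to 216 in females, also without overlap (12.5% of all genes).

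Within the RV libraries alone, where 966 of 11529 genes were called, only Fhl2 of the listed genes was called. Ankrd1 (log2 -0.15, adjusted p = 0.197) and Ankrd23 (log2 -0.32, adjusted p = 0.376) were not. Within the LV libraries, where 1165 of 11765 genes were called, all 3 were called. Fhl1 was called higher in females over both ventricles (log2 0.31 ± 0.094 (SE), adjusted p = 0.0142) and rested on the AOB-F rats 6 and 7, without which its log2 difference was 0.10 (adjusted p = 0.284). In AOB-F its females lay above all males in the RV and the LV (13.6% and 26.1% of all genes did not overlap). PAB-F had 4 males of 6 rats, AOB-F 4 of 7 and Sham-F 4 of 9. At the early stage PAB-H had 4 males of 6 rats, AOB-H 2 of 6 and Sham-H 3 of 7. The sexes were thus not balanced between the groups compared.

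Over the 12 group means of log2 CPM, genes outside the list among the 2 most like each of the 7, of 11947 genes, are given as a description. Ankrd23 was closest to Nppa (r = 0.973) and Vil1 (r = 0.967), Nppa encoding atrial natriuretic peptide. Gprasp1 (r = 0.987) was among the 2 most like Xirp2, and Slc6a17 (r = 0.982) among the 2 most like Fhl2. Ankrd1 was closest to Synm (r = 0.968) and Bmx (r = 0.962), Synm encoding the intermediate filament protein synemin. Fhl1 was closest to Sema5a (r = 0.958) and Cdo1 (r = 0.937), Csrp3 to Mmp12 (r = 0.925) and Cpxm2 (r = 0.907), and Ankrd2 to Bcdin3d (r = 0.864) and Clu (r = 0.862). The groups share rats between ventricles, and the high r for Xirp2 and Fhl2 is taken over groups in which most genes differ between late LV libraries and the rest.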

How the data were processed

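Cardiomyocyte RNA of both ventricles of 41 rats was measured in 82 libraries. The authors trimmed reads with Trim Galore, aligned them with STAR to the rat build Rnor6.0 and used featureCounts to count reads by gene, and deposited 1 table with, per library, raw counts, normalized counts (a signal made by the authors with DESeq2 size factors, DESeq2 1.28.1 in the submitters' notes) and FPKM values. The strand setting is not given in the sources used here, so reads of overlapping antisense genes cannot be told apart. Raw counts were used for all tests, and the deposited FPKM values only to compare genes with each other and to derive gene lengths. The deposited normalized counts were not used.

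Counts were fitted with edgeR 4.0.16 (R 4.3.3, TMM factors, filterByExpr, quasi-likelihood test, 12 group means, all 82 libraries), p-values were Benjamini-Hochberg adjusted over 11954 genes, and DESeq2 1.42.0 was an alternative. Normalized counts are counts over the TMM effective library size times its mean, 13279120. Depth was 6675287 to 19665439 counts per library. Correlations used log2 CPM (prior count 2) less the group mean, with 100000 permutations within groups (Python 3.11.15, scipy 1.17.1). The scripts were tested on simulated data. The 7 genes, the lists and the rule for named genes (all listed genes, up to 3 called partner genes per loaded ventricle, the 2 most alike genes, of which some are not reported here) were chosen with earlier results of these data known. RV and LV with the same replicate number came from the same rat by the labels, and their deviations from the group means correlated (median r 0.186 to 0.297 within rats of 6 groups, -0.0686 to -0.0142 between rats), so the animal was entered as a block in an alternative fit. Other fits left out libraries, changed scaling, filter or covariates, or used only the groups compared. PAB and AOB were compared with the same sham rats in each ventricle and stage and are not independent.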

Additional observations from a re-analysis of the deposited data

Results flagged for a closer look

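In the 84 gene-by-group sets of 6 to 9 libraries, 12 had 1 library far from the others by Dixon's test. Chance alone gives about 1 in 20 for independent, normally distributed values. The normalized counts were tested without logs and the sets share libraries and rats, so the count cannot be set against that rate. The library lay above the rest for Ankrd1 in LV AOB-F replicate 1 (59209.6 normalized counts), Ankrd23 in LV PAB-H replicate 1 (2058) and LV AOB-H replicate 2 (2206), Fhl1 in RV Sham-F replicate 4 (8968), LV Sham-F replicate 4 (6728) and LV PAB-F replicate 5 (7003), and Fhl2 in LV AOB-F replicate 5 (23887). It lay below the rest for Fhl1 (3448) and Fhl2 (10887) in LV AOB-H replicate 6, Fhl2 in LV PAB-F replicate 1 (15806), and Xirp2 in RV Sham-H replicate 2 (8572) and LV PAB-H replicate 2 (1451). RV Sham-F and LV Sham-F replicate 4, high for Fhl1, were the same rat.

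The Ankrd23 response to PAB at the F stage differed between the ventricles, by 2.80 on the log2 scale (RV minus LV, adjusted p = 0.00313 by edgeR's interaction contrast). In LV AOB-F the lowest Ankrd23 library was replicate 5, the rat with the highest Fhl2 of that group.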

How the results depend on the processing

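The alternatives gave 4218 values for single genes, of which 4025 kept their direction and side of the threshold, 55 lost and 36 gained a call, 0 called values reversed, and 102 values that were not called changed sign (at most 0.321 on the log2 scale). Of the 27 counts of called genes, 20 did not change beyond 1.5 times outside left-out libraries. With only the groups compared in the fit, the count was 3 in place of 1 for RV PAB-H, 0 in place of 5 for LV AOB-F and 1 in place of 0 for Sham-F against Sham-H in the RV. Of all genes these fits called 1642 of 11009, 15 of 11296 and 141 of 10874. For RV PAB-F it was 3 in place of 5 with no filter on low counts. For RV AOB-F it was 1 in place of 0 with sex as a covariate or DESeq2. For RV against LV in Sham-H it was 2 in place of 1 with upper-quartile factors, sex or DESeq2. Leaving out AOB-F rats 6 and 7, an alternative chosen after seeing the data, gave 3 in place of 5 for LV AOB-F (344 of 11988 genes called). The sex difference, also split afterwards, gave 1 in place of 4 in the RV libraries alone (966 of 11529 genes called).

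Leaving out 1 library at a time gave counts of 1 to 5 for RV PAB-F, 0 to 1 for RV AOB-F, 1 to 2 for RV against LV in Sham-H, 0 to 2 in AOB-H, 2 to 4 for Sham-F against Sham-H in the LV, and 0 to 1 for the F minus H response of the LV to AOB (Fhl1 without LV AOB-F replicate 3). The other 17 counts stayed within 1.5 times.

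Banded and sham rats with the same replicate number are different animals. Deviations from the group means had a median r of 0.139 for such pairs of RV PAB-F and RV Sham-F. Over all banded groups it lay between -0.0809 (LV AOB-H) and 0.16 (LV PAB-F). The part of sex in these values was not tested. Males were numbered before females in each group, so the number also follows sex in part. With that number as a replicate block, RV PAB-F had 2 called genes in place of 5, and RV against LV in Sham-H had 2 in place of 1, as with the animal as a block. Ankrd2 had the lowest counts of the 7 genes, so its values carry the most counting error. The counts of correlations that passed did not change with RLE factors or a prior count of 0.5. Centred within group and sex, an alternative chosen after seeing the data, 13 in place of 19 pairs of genes passed.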
